A study of Homo sapiens with 8 samples.

Results

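CFDP1 and 9 genes for the SRCAP complex and its cargo were followed in HepG2 cells after knockdown of NAT10, an RNA cytidine acetyltransferase. CFDP1 was chosen for its increase after the knockdown in these same libraries. The other members were chosen by function: SRCAP, RUVBL1, RUVBL2, YEATS4, DMAP1, VPS72, ACTR6 and ZNHIT1 as subunits, and H2AZ1 as the histone the complex installs. All 10 were found among the 86369 Ensembl gene identifiers of the count matrix by their GENCODE 44 symbols, and all 10 were among the 13840 genes that passed the filter on low counts. HepG2 is an established hepatocellular carcinoma line. Both groups received a short interfering RNA (siRNA) by lipofection, either one against NAT10 (siNAT10) or a negative control (siCtrl), and RNA was taken after 2 days. Each group had 4 libraries, with replicates 1 and 2 in batch 1 and replicates 3 and 4 in batch 2, as labelled. The labels give neither the sequence nor the number of NAT10 siRNAs, and do not say whether replicates came from separate cultures, so the p-values measure only the spread between these libraries.

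The SRCAP complex uses ATP to exchange the core histone H2A of a nucleosome for the variant H2A.Z, which is found around the transcription start sites of active genes. SRCAP is the motor, a ring of RUVBL1 and RUVBL2 forms its scaffold, and VPS72 carries the H2A.Z-H2B dimer. CFDP1 (craniofacial development protein 1) is the human counterpart of yeast Swc5, a part of the related SWR1 exchanger, and is therefore grouped with this complex. In liver cells, as elsewhere, several of these subunits also serve in the TIP60/NuA4 acetyltransferase and the INO80 remodeller.

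Levels are given in CPM, counts scaled to a common library total with edgeR's trimmed mean factors (TMM). The libraries were primed on the poly(A) tail and read near the 3′ end of each mRNA, so a count does not grow with transcript length. Library totals ran from 9731718 to 27977110 counts. NAT10 itself stood at 44.7, 39.2, 77.8 and 48.9 in siCtrl replicates 1 to 4 and at 13.1, 12.2, 20.1 and 22.3 CPM in siNAT10, and the groups did not overlap. Of 8 hepatocyte markers 7 were detected above the filter, with a summed level of 7356 to 7917 CPM in the siCtrl libraries and 5969 to 6587 CPM with siNAT10. The groups did not overlap in this sum, which is mostly ALB (means of 4411 and 3422 CPM). The markers did not move together. ALB, AFP and TTR had fitted ratios of 0.775, 0.826 and 0.81. For each of these, every siNAT10 library lay below both siCtrl libraries of its batch, as for 7.9% of all tested genes. SERPINA1, at 1.70 to 13.2 CPM, had a ratio of 0.728 with a wide 95% interval of 0.424 to 1.25. Its fitted level in batch 2 was 2.71 times that in batch 1. APOA1 and HNF4A had ratios of 0.994 and 1.06, and FGB of 1.29. Of the 7 markers 0 were called (an edgeR adjusted p under 0.05), the lowest being 0.072 for ALB. Their part in the results below was not tested. The markers PTPRC and KRT5, of leukocytes and squamous epithelium, were at 0 in every library, and PECAM1 and COL1A1 reached at most 0.65 CPM. APOB, a marker that HepG2 cells are known to express, was listed at 7 counts over all libraries, so a value near 0 in this matrix is not read here as absence of the mRNA.

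The promoters of 3 members are shown because the results turn on them: CFDP1 for its increase, SRCAP for its difference between batches, and H2AZ1 as the cargo. Each runs 5′ to 3′ on the gene's strand from 250 bases before to 50 bases after the start site and is from RefSeq (GRCh38.p14). Capitals mark matches on either strand to ETS (CCGGAAG), SP1 (GGGCGG), NRF1 (GCGCA, any base, GCGC), CCAAT or TATA box (TATAAA) letters.
CFDP1, chr16:75433454-75433753, minus strand: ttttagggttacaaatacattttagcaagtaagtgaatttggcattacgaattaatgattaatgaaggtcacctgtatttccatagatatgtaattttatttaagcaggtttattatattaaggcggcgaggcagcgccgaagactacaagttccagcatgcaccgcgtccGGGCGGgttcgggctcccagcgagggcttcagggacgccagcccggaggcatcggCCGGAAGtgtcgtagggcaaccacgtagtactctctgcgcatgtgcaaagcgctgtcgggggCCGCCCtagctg
SRCAP, chr16:30698921-30699220, plus strand: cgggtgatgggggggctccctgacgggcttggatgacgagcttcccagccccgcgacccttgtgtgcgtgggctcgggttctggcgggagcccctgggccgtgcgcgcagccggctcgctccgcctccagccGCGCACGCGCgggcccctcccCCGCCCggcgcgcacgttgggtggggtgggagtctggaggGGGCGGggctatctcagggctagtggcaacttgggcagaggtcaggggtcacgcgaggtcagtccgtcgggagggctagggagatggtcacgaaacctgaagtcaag
H2AZ1, chr4:99950226-99950525, minus strand: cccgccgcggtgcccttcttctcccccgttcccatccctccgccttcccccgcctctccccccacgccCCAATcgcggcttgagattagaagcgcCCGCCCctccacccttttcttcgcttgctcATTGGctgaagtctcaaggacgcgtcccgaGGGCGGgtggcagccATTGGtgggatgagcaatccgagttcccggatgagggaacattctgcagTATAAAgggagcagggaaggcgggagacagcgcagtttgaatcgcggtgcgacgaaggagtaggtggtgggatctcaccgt

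These 3 windows differed in make-up. GC content was 51.0% for CFDP1, 72% for SRCAP and 63.0% for H2AZ1, against a median of 58.7% over 34943 RefSeq promoter windows. The SP1 letters occurred in all 3 and in 44.9% of all windows. The ETS letters occurred in CFDP1 and in 10.2% of all windows, and the NRF1 letters in SRCAP and in 5.74%. H2AZ1 alone of the 3 held the CCAAT letters, at 3 places (34.6% of windows hold at least 1), and the TATA letters (11.6%). A promoter entry was matched for 9 of the 10 members. Over those 9, the ETS letters were also found in DMAP1, ACTR6 and ZNHIT1 and the NRF1 letters in YEATS4 and ZNHIT1. E-box (CACGTG) and CRE (TGACGTCA) letters were found in 0 of the 9, and in 7.23% and 1.84% of all windows. A match describes letters and does not show that a factor binds there.

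CFDP1 mRNA was 2.03 times as abundant in siNAT10 as in siCtrl, and this value chose the gene, so it is given as a description with no test. CFDP1 (ENSG00000153774; GRCh38 chromosome 16, 75293698 to 75433503, minus strand) stood at 41.7, 32.1, 46.8 and 37.6 CPM in siCtrl replicates 1 to 4. In siNAT10 it stood at 77.4, 82.3, 91.5 and 69.3 CPM. The lowest siNAT10 library was thus above the highest siCtrl library in both batches. The group means were 39.6 ± 6.25 and 80.1 ± 9.28 CPM (SD, n = 4 each), and the counts behind them ran from 521 to 2367 per library. On the log2 scale the fit gave 1.02 (standard error 0.12), with a 95% interval of 1.69 to 2.43 as a fold. The increase was 1.11 on the log2 scale within batch 1 and 0.93 within batch 2, and leaving out any 1 library gave 0.93 to 1.11.

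CFDP1 did not have the highest fitted increase. The 7 genes called with larger ones, from HSPA6 at a log2 fold change of 1.52 to CYP8B1 at 1.13, had means of 1.61 to 4.98 CPM, below the 59.9 CPM of CFDP1. Next below it among called genes with means of at least 8 CPM stood DDC at 0.97 and BIRC7 at 0.96. No gene of GENCODE 44 overlaps the last 300 bases of the canonical CFDP1 transcript on either strand. At its other end CFDP1 is overlapped on the same strand by ENSG00000261717 (75412684 to 75464706), listed at 0 counts in all 8 libraries. Whether these 2 genes share exon bases was not tested. For all 10 members, 0 other genes had a transcript that shared at least 100 bases at 90% identity with those last 300 bases.

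The change in CFDP1 altered its place among the members. In siCtrl its mean lay beside that of VPS72 (39.6 ± 7.29 CPM), and in siNAT10 beside those of RUVBL1 (81.6 ± 6.18 CPM) and ZNHIT1 (78.1 ± 9.41 CPM), differences smaller than the SDs. The ratio of CFDP1 to VPS72 counts, which library scaling does not touch, was 1.11, 0.644, 1.43 and 0.987 in siCtrl and 1.86, 2.16, 2.48 and 1.64 in siNAT10. Set against its cargo, CFDP1 counts were 5.86% to 10.3% of H2AZ1 counts in siCtrl and 19.4% to 21.2% in siNAT10. Both ratios take in the choice of CFDP1 and are descriptions.

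**Figure D1:**
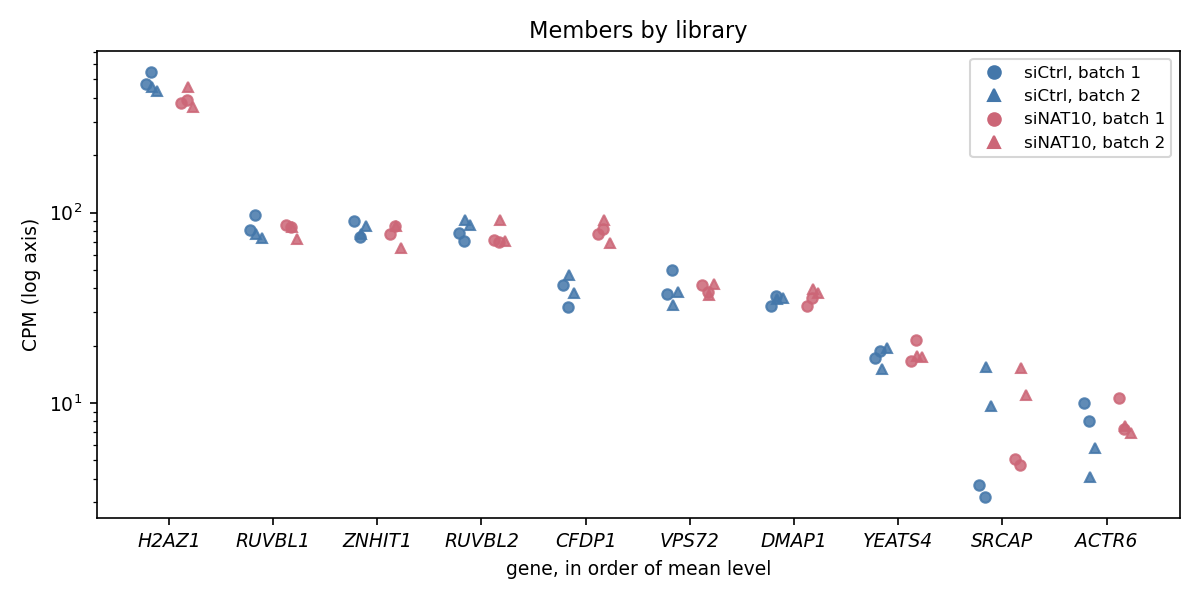
CPM of each member on a log axis, 1 point per library, with siCtrl in blue and siNAT10 in red, circles for batch 1 and triangles for batch 2. H2AZ1 is highest throughout, CFDP1 moves from the level of VPS72 in siCtrl to that of RUVBL1 in siNAT10, and the SRCAP points split by batch.

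The motor and the scaffold of the complex were then read from the same fit. Of the 9 members other than CFDP1, 0 were called in edgeR's quasi-likelihood test, where 2.28% of all tested genes were called (0.816% higher and 1.46% lower), and 1 (H2AZ1) had an unadjusted p under 0.05. DESeq2 also called 0 of the 9. Their median log2 fold change was 0.011, against -0.0024 over all tested genes, with 5 fitted higher and 4 lower. For 0 of the 9 did every siNAT10 library lie beyond both siCtrl libraries of its batch, which 14.7% of all tested genes did (6.76% above and 7.9% below).

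SRCAP, the ATPase motor (ENSG00000080603; chromosome 16, 30698209 to 30741409, plus strand), stood at 3.71, 3.22, 15.5 and 9.61 CPM in siCtrl and at 5.09, 4.69, 15.2 and 11.0 CPM in siNAT10. The siRNA groups overlapped, and the 4 libraries of batch 2 were all above the 4 of batch 1. Its fitted ratio of siNAT10 to siCtrl was 1.19 (95% interval 0.911 to 1.56, edgeR adjusted p 0.55). RUVBL1, 1 of the AAA ATPases of the ring (ENSG00000175792; chromosome 3, 128064778 to 128153914, minus strand), stood at 81.1, 96.7, 76.7 and 73.3 in siCtrl and at 85.9, 84.2, 84.1 and 72.4 CPM in siNAT10. These ranges overlapped, with siCtrl replicate 2 above every siNAT10 library, and the fitted ratio was 0.999 (95% interval 0.861 to 1.16, edgeR adjusted p 0.996). RUVBL2, its partner (ENSG00000183207; chromosome 19, 48993562 to 49015970, plus strand), stood at 77.9, 70.6, 91.8 and 85.6 in siCtrl and at 71.7, 70.3, 91.8 and 70.5 CPM in siNAT10. The fitted ratio was 0.935 (95% interval 0.803 to 1.09, edgeR adjusted p 0.72), with siNAT10 replicate 3 well above the other siNAT10 libraries.

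The ratio of RUVBL1 to RUVBL2 counts was 1.04, 1.37, 0.836 and 0.857 in siCtrl and 1.20, 1.20, 0.916 and 1.03 in siNAT10. On the log2 scale the mean difference was 0.10 (0.007 ± 0.33 in siCtrl, 0.11 ± 0.19 in siNAT10; SD, n = 4 each), which did not pass an exact two-sided permutation test over 70 arrangements (p = 0.63). The difference was 0.0052 in batch 1 and 0.20 in batch 2. The 70 arrangements took no account of batch, by which the ratio itself split (1.04 to 1.37 in batch 1, 0.836 to 1.03 in batch 2). The p of 0.63 from that permutation test therefore says little about a change inside the batches.

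The subunits that bind histones or are shared with TIP60/NuA4 were not called. YEATS4, a reader of acylated histone H3 (ENSG00000127337; chromosome 12, 69359710 to 69390870), stood at 17.3, 18.8, 15.0 and 19.4 in siCtrl and at 16.7, 21.3, 17.6 and 17.5 CPM in siNAT10, a fitted ratio of 1.04 (95% interval 0.866 to 1.25). DMAP1, named for its binding to DNA methyltransferase 1 (ENSG00000178028; chromosome 1, 44213455 to 44220681), stood at 32.2, 36.2, 35.3 and 35.6 in siCtrl and at 32.1, 35.4, 39.8 and 37.6 CPM in siNAT10. Its fitted ratio was 1.04 (95% interval 0.895 to 1.20). Its spread in log2 CPM within groups was the smallest of the members (mean SD 0.10). VPS72, the H2A.Z chaperone subunit (ENSG00000163159; chromosome 1, 151176304 to 151195321), stood at 37.5, 49.9, 32.7 and 38.2 in siCtrl and at 41.6, 38.0, 36.9 and 42.2 CPM in siNAT10, a fitted ratio of 1.01 (95% interval 0.845 to 1.20). The edgeR adjusted p of these 3 ran from 0.85 to 0.98, and their intervals reached from 0.845 to 1.25.

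ACTR6 and ZNHIT1 belong to SRCAP and not to TIP60/NuA4. ACTR6, a nuclear actin-related protein (ENSG00000075089; chromosome 12, 100199122 to 100241865), had the lowest mean of the members, at 10.0, 8.05, 4.08 and 5.78 in siCtrl and at 10.6, 7.33, 7.53 and 6.94 CPM in siNAT10. The groups overlapped, and the fitted ratio of 1.18 had a wide 95% interval of 0.897 to 1.56 (edgeR adjusted p 0.59) from 71 to 275 counts per library. The gene DEPDC4 lies on the other strand over its 3′ end, at 1.47 to 3.06 CPM, so the ACTR6 count is uncertain, as the sources used here do not give the strand rule of the counting. ZNHIT1, a zinc finger HIT-type subunit (ENSG00000106400; chromosome 7, 101218165 to 101224190), stood at 90.3, 74.1, 76.7 and 84.5 in siCtrl and at 77.6, 84.7, 85 and 64.9 CPM in siNAT10. Its fitted ratio was 0.959 (95% interval 0.815 to 1.13, edgeR adjusted p 0.85).

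H2AZ1, which codes for the H2A.Z form of the histone (ENSG00000164032; chromosome 4, 99948086 to 99950355, minus strand), was the most abundant member and had the lowest p of the 9. It stood at 475, 547, 455 and 437 in siCtrl and at 378, 388, 455 and 357 CPM in siNAT10. In batch 1 both siNAT10 libraries lay below both siCtrl libraries, while in batch 2 the siNAT10 replicate 3 value lay between the siCtrl values. The fitted ratio was 0.825 (95% interval 0.701 to 0.971, unadjusted p 0.023), and it did not pass after adjustment over all genes (edgeR adjusted p 0.23). Of all tested genes, 15.7% had an unadjusted p under 0.05. Within batch 1 the log2 difference was -0.41 and within batch 2 it was -0.13, and the interaction of batch and siRNA for H2AZ1 had an unadjusted p of 0.23.

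H2AZ2, the paralogue that codes for a near-identical H2A.Z protein, stood at 197, 232, 266 and 230 in siCtrl and at 187, 219, 212 and 249 CPM in siNAT10, a fitted ratio of 0.937 (95% interval 0.802 to 1.10, edgeR adjusted p 0.74). The ratio of H2AZ1 to H2AZ2 counts was 2.41, 2.36, 1.71 and 1.90 in siCtrl and 2.03, 1.77, 2.14 and 1.43 in siNAT10. The mean log2 ratio was 1.05 ± 0.24 and 0.87 ± 0.26 (SD, n = 4 each), a difference of -0.19 that did not pass the exact two-sided permutation test (p = 0.34). Exchanging labels inside each batch alone gave an exact permutation p of 0.28 over 36 arrangements, and the difference was -0.33 in batch 1 and -0.04 in batch 2. Summed over both genes, H2A.Z mRNA stood at 709.8 ± 52.1 in siCtrl and at 610.8 ± 42.1 CPM with siNAT10 (SD, n = 4 each). The lowest siCtrl sum was 668 CPM and the highest siNAT10 sum 667 CPM, so the groups met without overlapping, and this sum was chosen after its values had been seen.

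**Figure D2:**
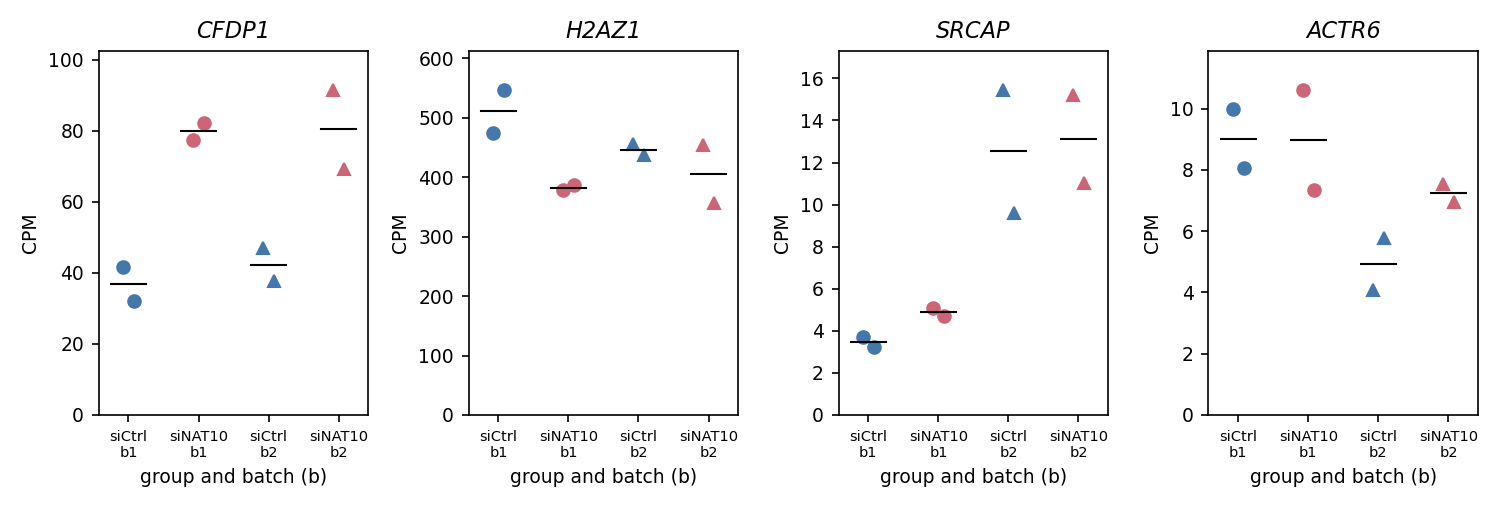
CPM of CFDP1, H2AZ1, SRCAP and ACTR6 in siCtrl (blue) and siNAT10 (red), by batch (b1 circles, b2 triangles), with 1 point per library, a line at the mean of each pair and axes from 0. CFDP1 splits by siRNA in both batches, SRCAP splits by batch, and H2AZ1 splits by siRNA in batch 1 alone.

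The batches, which the choice of members did not use, were compared in the same fit. SRCAP was 3.12 times as abundant in batch 2 as in batch 1 (95% interval 2.38 to 4.10, edgeR adjusted p 1.8e-05), at 3.22 to 5.09 CPM in batch 1 and 9.61 to 15.5 CPM in batch 2. By this fold it ranked 51 among the 13840 tested genes. ACTR6 was lower in batch 2, at 0.661 times its batch 1 level (95% interval 0.50 to 0.873, edgeR adjusted p 0.029). These 2 of 10 members were called, where 25.3% of all tested genes were called between the batches, so the count itself is no result about the members. CFDP1 was not called, with a ratio of 1.07 (95% interval 0.896 to 1.28, edgeR adjusted p 0.58), and the remaining members had edgeR adjusted p of 0.12 or more.

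The SRCAP difference was 1.45 to 1.77 on the log2 scale in fits that left out any 1 library, and it was called in each. The ACTR6 call was lost without siCtrl replicate 1, 2, 3 or 4 or siNAT10 replicate 1, with edgeR adjusted p from 0.051 to 0.12. The SRCAP count rests on 56 to 330 reads per library. In GENCODE 44, 86.5% of the exon bases of its canonical transcript also belong to ENSG00000282034 on the same strand, which was listed at 0 counts in all 8 libraries, while 0 of its last 300 bases do. How reads in shared exons were assigned is not given in the sources used here, and its part in the SRCAP values was not tested. The effect of siNAT10 differed between batches for 0 of the 10 members and for 0 of 13840 genes (edgeR interaction test). Unadjusted, 0 members and 421 genes (3.04%) had p under 0.05, and with DESeq2 1 gene, not a member, was called.

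**Figure D3:**
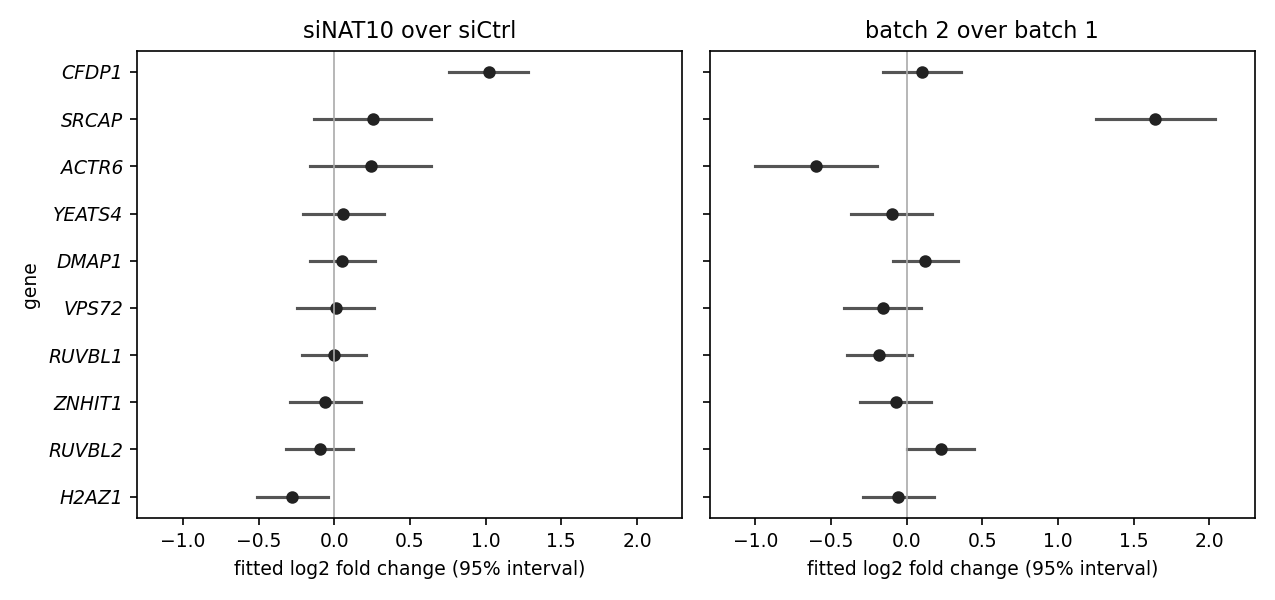
Fitted log2 fold change of each member with its 95% interval, for siNAT10 over siCtrl (left) and batch 2 over batch 1 (right), on 1 common scale. CFDP1 stands at 1.02 on the left, where it was chosen, and at 0.10 on the right, where SRCAP stands at 1.64 and ACTR6 at -0.60.

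The complexes that share these subunits or handle H2A.Z were described from 7 lists. Of 54 listed genes 50 were tested, and 1 was called (2.00%, against 2.28% of all tested genes). The called gene was MBTD1, a methyl-lysine reader of TIP60/NuA4, at 9.27, 9.61, 5.86 and 7.01 in siCtrl and at 14.4, 12.3, 9.02 and 11.0 CPM in siNAT10. Every siNAT10 library was above both siCtrl libraries of its batch, as for 6.76% of all tested genes. The fitted ratio of MBTD1 was 1.48 (95% interval 1.20 to 1.82, edgeR adjusted p 0.046). Leaving out any 1 of the 8 libraries ended the call (edgeR adjusted p 0.067 to 0.15), as did fitting a single batch (0.21 and 0.66) or dropping the batch term (0.48).

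Within TIP60/NuA4, 1 of 12 genes was called higher and 0 lower, with a median log2 fold change of 0.081 against -0.0024 over all tested genes. The other 11 included MORF4L2, a chromodomain-related subunit, at 239 ± 44.1 in siCtrl and at 280 ± 43.1 CPM with siNAT10 (SD, n = 4 each; edgeR adjusted p 0.21). Of INO80, 10 of 12 genes were tested and 0 were called, with a median of 0.092. The INO80 gene with the largest fitted change was INO80B with -0.81 on the log2 scale (edgeR adjusted p 0.35), which had 5 to 24 counts per library. INO80D and TFPT were listed at 0 and 5 counts over all libraries and were not tested.

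Of ACTL6A and ACTB, listed as other SRCAP parts, and the paralogue H2AZ2, listed with them, 0 of 3 were called, and the median was 0.16. The largest change among them was that of ACTL6A, an actin-related subunit shared with INO80 and BAF, at 22.3, 30.2, 22.0 and 29.8 in siCtrl and at 34.1, 30.8, 31.6 and 31.6 CPM in siNAT10. All 4 siNAT10 values were above the highest siCtrl value, a pattern whose share over all tested genes was not counted. By the looser rule within batches, every siNAT10 library lay above both siCtrl libraries for 6.76% of all tested genes. The fitted ratio of ACTL6A was 1.23 (95% interval 1.02 to 1.48, edgeR adjusted p 0.25). Among the R2TP partners, which work with RUVBL1 and RUVBL2 in assembling other complexes, 0 of 5 were called and the median was -0.048. RPAP3, the R2TP scaffold, stood at 14.3, 9.55, 9 and 13 in siCtrl and at 18.8, 16.7, 13.9 and 18.8 CPM in siNAT10. Its fitted ratio was 1.48 (95% interval 1.17 to 1.87, edgeR adjusted p 0.079), and it was called when the replicate pairing replaced batch as the block (edgeR adjusted p 0.018).

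The H2A.Z handling list had 3 of 5 genes tested and 0 called, with PWWP2A, an H2A.Z binding protein, whose log2 difference was -0.11 (edgeR adjusted p 0.82). NAP1L4 and BRD2 were listed at 5 and 18 counts over all libraries and were not tested. The 4 other H2A variants were all fitted lower (median -0.16) and 0 were called. H2AJ among them stood at 18.9 ± 1.68 in siCtrl and at 14.5 ± 2.60 CPM with siNAT10 (SD, n = 4 each), with an edgeR adjusted p of 0.15. Of 13 motors of other remodellers 0 were called, and the largest change was that of ATRX, the motor that works with the H3.3 chaperone DAXX, whose log2 difference was 0.34 (edgeR adjusted p 0.21). Between batches, 17 of the 50 tested list genes were called, 11 higher and 6 lower in batch 2, against 25.3% of all tested genes (13% higher and 12.2% lower).

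**Figure D4:**
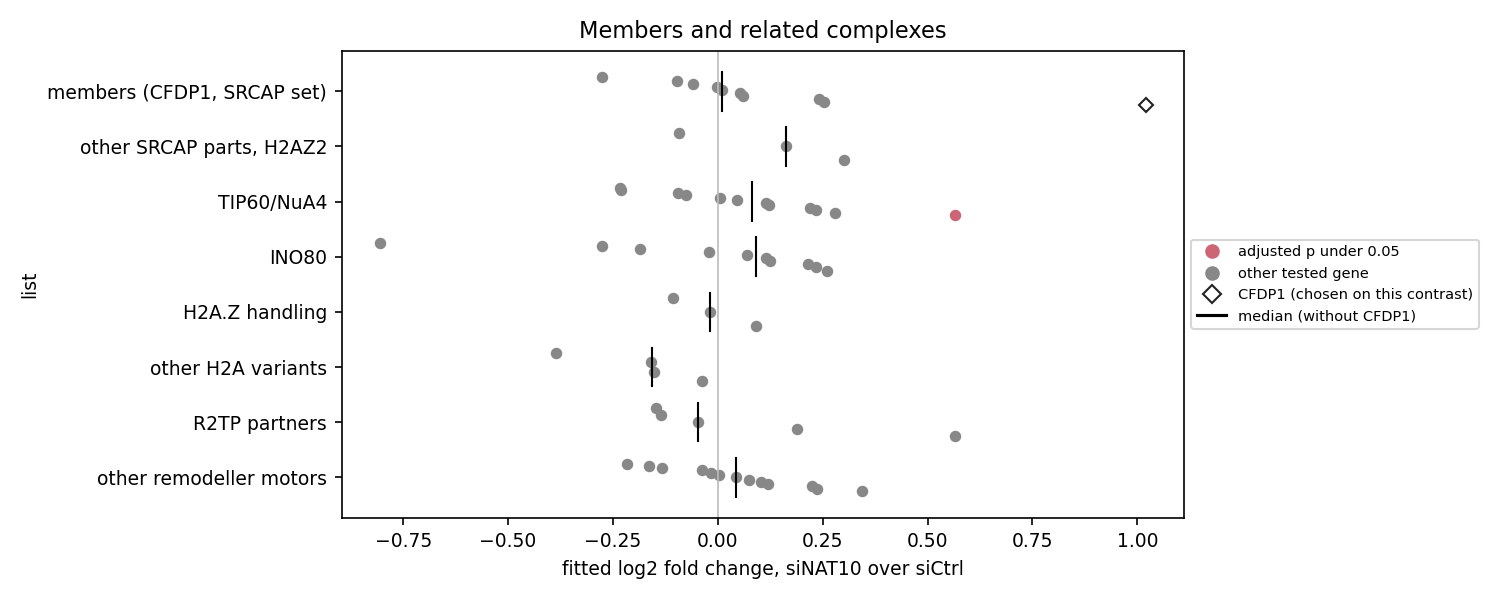
Fitted log2 fold change of siNAT10 over siCtrl for the members and 7 related lists, 1 point per tested gene, with a black line at each list's median (CFDP1 left out). CFDP1, the open diamond chosen on this contrast, stands at 1.02, and MBTD1 at 0.56 is the called list gene.

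The genes around CFDP1 on chromosome 16 were not called by edgeR with the filter on low counts. Of 20 protein-coding genes within 300 kb, 11 were tested and 0 were called by edgeR (2.28% of all tested genes were). Of the 11, 3 had an unadjusted p under 0.05, all 3 lower, against 15.7% of all tested genes in either direction. The median log2 fold change was -0.13, with 10 fitted lower and 1 higher, against a median of -0.0024 and 6968 of 13840 fitted lower over all tested genes. TMEM170A, the nearest tested gene beyond the CFDP1 start site, stood at 26.1 ± 2.93 in siCtrl and at 26.8 ± 1.20 CPM with siNAT10 (SD, n = 4 each), a fitted ratio of 1.03 (95% interval 0.869 to 1.21, edgeR adjusted p 0.92). BCAR1, an adaptor of focal adhesions on the other side, stood at 5.74, 6.85, 11.4 and 10.2 in siCtrl and at 4.05, 2.75, 8.86 and 7.53 CPM in siNAT10. Both siNAT10 libraries were below both siCtrl libraries in each batch, as for 7.9% of all tested genes. The fitted ratio of BCAR1 was 0.642 (95% interval 0.494 to 0.833, edgeR adjusted p 0.075). DESeq2 called it (adjusted p 0.033), as did edgeR with no filter on low counts (adjusted p 0.021).

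Farther out, ADAT1 and TMEM231 had log2 fold changes of -0.32 and -0.46 (edgeR adjusted p 0.21 and 0.27), and LDHD one of -0.26 (0.68). The log2 fold changes of WDR59, ZNRF1, CHST6, GABARAPL2, KARS1 and TERF2IP were -0.05, -0.17, -0.10, -0.07, -0.13 and -0.04, with edgeR adjusted p of 0.43 or more. The other 9 neighbours, among them ZFP1, CTRB1, CTRB2 and CHST5, were at or near 0 counts and were not tested.

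**Figure D5:**
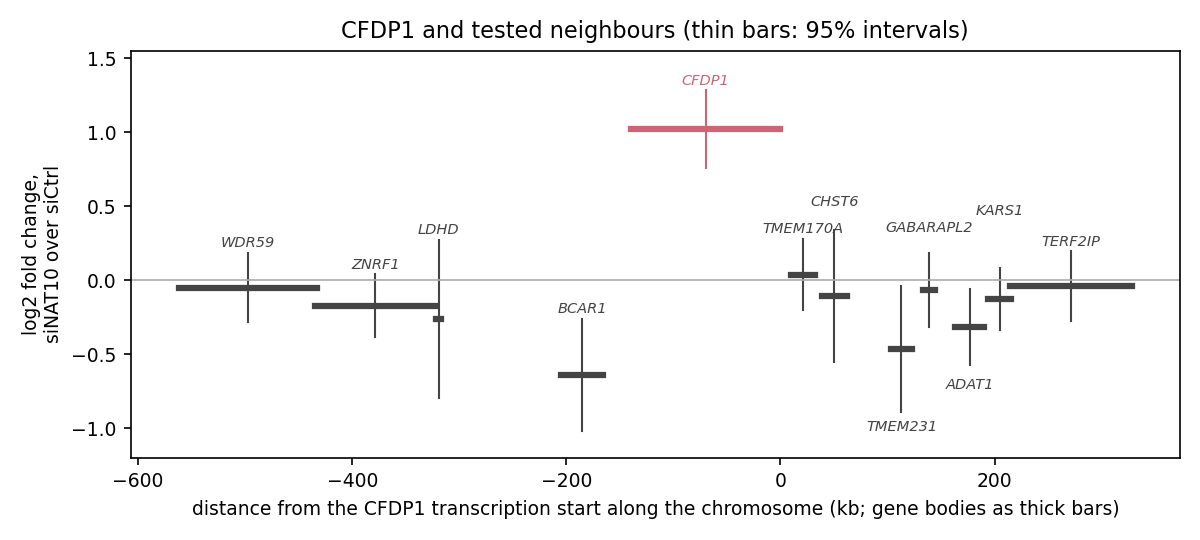
Fitted log2 fold change of siNAT10 over siCtrl for CFDP1 (red) and the 11 tested protein-coding genes within 300 kb, against distance from the CFDP1 start site in kb, with gene bodies as thick bars and 95% intervals as thin bars. CFDP1 stands at 1.02 and its neighbours between -0.64 and 0.037.

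Over the 8 libraries, the 5 genes whose log2 CPM followed that of CFDP1 most closely, among 8458 with a symbol and a mean of at least 8 CPM, were LGALS2, GSKIP, FGG, TPCN1 and DSC2. Their Pearson r with CFDP1 was 0.99, 0.96, 0.95, 0.95 and 0.93, given as a description of libraries that share the siRNA contrast. LGALS2, a galectin, stood at 23.9 ± 4.73 in siCtrl and at 43.5 ± 4.73 CPM in siNAT10, and DSC2, a desmosomal cadherin, at 26.7 ± 6.54 and 48.3 ± 5.21 CPM (SD, n = 4 each). FGG, the fibrinogen gamma chain, stood at 177 ± 11.7 and 246 ± 21.8 CPM (SD, n = 4 each). GSKIP and TPCN1 had smaller fitted log2 fold changes, 0.28 and 0.27. None of the 9 other members was among the 5. This absence says little, as only 5 of 8458 genes were taken and ACTR6 (mean 7.54 CPM) was below the floor. The r of the 9 members with CFDP1 ran from -0.70 for H2AZ1 to 0.32 for SRCAP.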

How the data were processed

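The matrix the authors deposited holds unnormalized whole-number counts per Ensembl gene. The submitters' processing notes name Trim Galore 0.6.10, cutadapt 3.5, STAR 2.7.9a, featureCounts (Subread) and the build GRCh38. The annotation release, strand setting and rule for reads in more than 1 gene are not given in the sources used here. The kit's orientation is stated differently in the series text and the sample protocols. Columns were matched to libraries through the sample descriptions, with 0 left unused, and 61458 of 86369 identifiers matched GENCODE 44.

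The tests used edgeR 4.0.16 under R 4.3.3: filterByExpr (minimum count 10), TMM scaling, and the quasi-likelihood F test with batch and siRNA as additive terms. P-values were adjusted by Benjamini-Hochberg over all 13840 tested genes. Intervals are 95% and use the standard error from the F statistic. No molecular identifiers are named, so depth limits counting error only.

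Named genes were the members, NAT10, the called and most changed gene of each list, every neighbour of CFDP1 and the 5 genes most like it. MORF4L2, H2AZ2, the hepatocyte markers and the genes just above and below CFDP1 were named outside this rule after their values were seen. The members and lists were chosen with earlier results of these data known. Same-numbered libraries deviated together (correlations of 0.39, 0.38, 0.45 and 0.36 across genes for replicates 1 to 4), and within batches at -0.06 and 0.17. Replicate pairs differed by far more than counting noise. The alternatives were fits without batch, with a replicate block, with DESeq2 1.42.0, other scalings and filters, single batches and each library left out.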

Additional observations from a re-analysis of the deposited data

Results flagged for a closer look

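In 3 of 26 sets of 4 values (a gene or ratio in siCtrl or in siNAT10), 1 library stood far from the other 3. For 4 independent values from 1 normal distribution, chance gives this in about 1 of 20 sets. The sets here pool 2 batches and share genes, so their number cannot be set against that rate. RUVBL1 in siNAT10 had its low value in replicate 4 (72.4 CPM, a gap of 0.866 of the range), and without that library its log2 fold change was 0.030. RUVBL2 in siNAT10 had its high value in replicate 3 (91.8 CPM, 0.933 of the range), and without it the log2 fold change was -0.16. ACTR6 in siNAT10 had its high value in replicate 1 (10.6 CPM, 0.84 of the range), and without it the log2 fold change was 0.18. RUVBL1, RUVBL2 and ACTR6 were not called with or without these libraries.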

How the results depend on the processing

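CFDP1 kept its direction and stayed within 1 SD of replicates in all 17 alternatives (log2 fold change 0.93 to 1.11). The gene was chosen for its increase in these same libraries, which the alternatives refit, so this is a description and no support. In all 17 alternatives 0 of the 9 other members was called. The count over all genes, 315, was 15 without the batch term, 595 with no filter, 601 with DESeq2, 173 in batch 1 alone, 0 in batch 2 alone (946 at an unadjusted p under 0.05) and 75 to 286 with 1 library left out. With the replicate block it was 454. Among the 9 other members, the list genes, the CFDP1 neighbours and NAT10, the block changed the call of RPAP3 alone. Called list genes, 1 in the fit with batch, were 0 without the batch term, 0 in batch 1 alone, 0 in batch 2 alone, 0 with any library left out, and 2 with the replicate block, DESeq2 or no filter (MBTD1 and RPAP3). Among CFDP1 neighbours 1 (BCAR1) was called with DESeq2 or no filter. Members called between batches ranged from 1 to 3 with a library left out, members beyond their batch controls from 0 to 1, and interaction genes from 0 to 2, with 15 under no filter and 1 by DESeq2. NAT10 had an adjusted p of 0.086 in batch 2 alone (log2 fold change -1.58). The cause of these shifts was not tested.

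Fitted changes near 0 changed sign without being called. RUVBL1 was 0.0060 with RLE factors, 0.037 with library size alone, 0.063 in batch 2 alone, 0.0060 with DESeq2 and -0.050 to 0.067 with a library left out. In batch 1 alone DMAP1 was -0.014, VPS72 -0.13, ACTR6 -0.027, PWWP2A 0.012, LDHD 0.062, TMEM170A -0.045, CHST6 0.0058 and GABARAPL2 0.11. TERF2IP was 0.0032 with library size alone and 0.11 in batch 2 alone. With a library left out, YEATS4 ran from -0.018 to 0.14, VPS72 from -0.053 to 0.13, ZNHIT1 from -0.12 to 0.023, PWWP2A from -0.22 to 0.028, WDR59 from -0.12 to 0.0064, TMEM170A from -0.045 to 0.097, CHST6 from -0.25 to 0.10, GABARAPL2 from -0.18 to 0.021 and TERF2IP from -0.15 to 0.016.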

Other observations

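The ratio of RUVBL1 to RUVBL2 followed the batches more than the siRNA. It was 1.04 to 1.37 in the 4 libraries of batch 1 and 0.836 to 1.03 in the 4 of batch 2. This was seen after the values were known and was not tested.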
